A study of Mus musculus with 16 samples.

Results

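The genes described here act in the last steps of red cell formation, when an erythroblast condenses its nucleus and then expels it. They are 9 genes chosen by name among the 46078 genes counted in every library: the export receptor *Xpo7*, the histone deacetylases *Hdac1* and *Hdac2*, the GTPases *Rac1* and *Rac2*, the intermediate filament gene *Vim*, the ubiquitin ligase *Trim58*, and the lamins *Lmna* and *Lmnb1*. All 9 had counts in each of the 16 libraries and passed the filter on low counts in every main test.

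During terminal erythroid differentiation the chromatin is compacted, histones leave the nucleus in part through openings of the lamina, and an actomyosin ring, formed under the control of Rac GTPases, pinches off the nucleus as a pyrenocyte that macrophages engulf. Xpo7 is a nuclear export receptor abundant in erythroblasts, histone deacetylases remove acetyl groups that keep chromatin open, and Trim58 is an erythroid ubiquitin ligase that targets the dynein motor. Vimentin filaments, which hold the nucleus in place in other cells, are lost as murine erythroblasts mature.

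Polychromatic (Poly-E) and orthochromatic (Ortho-E) erythroblasts, an earlier and a later stage before enucleation, were sorted as live cells by CD44 and Ter119. They came from steady-state bone marrow of *Ypel4*+/+ mice and of homozygous mutant *Ypel4*−/− mice, and each of the 4 groups held 4 libraries numbered 1 to 4. No source used here says that each number is a separate mouse, so p-values measure the spread between these libraries. All mice were of the C57BL/6N-A<tm1Brd> strain, and the mutant allele was Ypel4<tm1a(EUCOMM)Wtsi>/WtsiIeg. This trap allele was inherited and not made with Cre, so all cells of a mutant mouse carried it. The age of the mice is not given in the sources used here. Levels are given in CPM, counts scaled to a fixed library size after TMM normalization over the 16 libraries, which evens out the bulk of the genes between libraries. A gene was called changed at an adjusted p of 0.05 or less in edgeR's quasi-likelihood test.

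The libraries held 2670173 to 12451234 counts. *Ypel4* itself was at 577 ± 105 CPM in *Ypel4*+/+ and 15.9 ± 5.70 CPM in *Ypel4*−/− Poly-E, against 4966 and 205 CPM in Ortho-E (mean ± SD, n = 4), and within a stage no mutant library reached a wild-type one. The 12 erythroid markers summed to 33011 to 41011 CPM in Poly-E and 94241 to 109660 CPM in Ortho-E libraries, where *Slc4a1* alone averaged 48238 CPM in *Ypel4*+/+. Of the 12, 8 were called higher and 3 lower in *Ypel4*+/+ Ortho-E, against 26.4% and 32.1% of all genes tested. In *Ypel4*−/− mice 8 were higher and 2 lower, against 29.5% and 31.5%. The mean of *Gata1* went from 289 to 228 CPM and that of *Klf1* from 519 to 384 CPM in *Ypel4*+/+ mice. *Kit*, an early progenitor receptor, had 5 counts over all Poly-E and 0 over all Ortho-E libraries. The 10 most abundant genes took 11.9% to 13.8% of the counts in Poly-E and 22.1% to 24.3% in Ortho-E libraries, and the TMM factors were 1.45 to 1.64 in Poly-E and 0.606 to 0.726 in Ortho-E. Because RNA was measured per library, fewer cells with a transcript and less of it per cell cannot be told apart.

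To show the start regions of genes that moved in opposite directions, 300 bases around the RefSeq starts (250 before, 50 after, GRCm38.p6, sense strand, 5′ to 3′) are given for *Trim58*, which was far higher in Ortho-E, and for *Hdac2* and *Lmna*, which were lower. RefSeq start regions were matched for 4 of the 9 genes (these and *Vim*). The regions are chr11:58640215-58640514 on the + strand for *Trim58*, chr10:36974294-36974593 on the + strand for *Hdac2*, and, for 1 of 2 *Lmna* starts, chr3:88503303-88503602 on the − strand. Both *Lmna* regions, this and chr3:88493263-88493562, lie inside the gene as counted here (88480147 to 88509956, − strand). Neither is thus at the outermost start of *Lmna*. Capitals mark matches to the motifs searched.
Trim58: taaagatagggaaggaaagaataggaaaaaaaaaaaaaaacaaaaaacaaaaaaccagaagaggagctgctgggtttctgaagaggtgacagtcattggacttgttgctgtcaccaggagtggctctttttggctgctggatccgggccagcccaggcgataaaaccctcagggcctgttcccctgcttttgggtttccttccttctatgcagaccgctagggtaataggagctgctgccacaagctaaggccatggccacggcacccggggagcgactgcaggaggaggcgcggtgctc
Hdac2: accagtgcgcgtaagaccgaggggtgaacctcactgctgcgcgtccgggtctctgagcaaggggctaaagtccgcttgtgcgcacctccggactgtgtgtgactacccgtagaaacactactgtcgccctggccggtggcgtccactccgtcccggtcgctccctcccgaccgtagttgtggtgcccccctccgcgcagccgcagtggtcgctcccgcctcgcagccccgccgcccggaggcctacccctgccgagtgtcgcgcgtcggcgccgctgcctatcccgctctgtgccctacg
Lmna: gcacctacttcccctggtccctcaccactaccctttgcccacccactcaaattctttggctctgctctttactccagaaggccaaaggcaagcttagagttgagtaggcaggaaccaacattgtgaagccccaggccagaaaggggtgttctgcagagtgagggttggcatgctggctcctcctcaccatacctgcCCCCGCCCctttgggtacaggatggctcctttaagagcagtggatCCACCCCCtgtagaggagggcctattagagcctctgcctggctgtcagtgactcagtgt
The motifs were AGATAA and TGATAA (letters bound by GATA factors), CCNCNCCC (KLF factors) and CCGGAAG (ETS factors), each on both strands. Neither *Trim58* nor *Hdac2* held a match, the *Lmna* region shown held 2 matches to CCNCNCCC, the other *Lmna* start region 1 match to CCGGAAG, and the *Vim* region 4 matches to CCNCNCCC, 3 of them overlapping. Of all 32851 RefSeq start regions of this length, 18.6% held AGATAA or TGATAA, 49.5% CCNCNCCC and 8.86% CCGGAAG. The *Hdac2* region was richest in G and C (69.7%, with 36 CpG), against 52.3% and 8 CpG for *Trim58*.

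Between Poly-E and Ortho-E most of these genes changed. In *Ypel4*+/+ mice *Xpo7* and *Trim58* rose, *Hdac1*, *Hdac2*, *Rac1*, *Rac2*, *Lmna* and *Lmnb1* fell, and *Vim* did not pass the test. Thus 2 of 9 were called higher and 6 lower, where 58.5% of 11747 genes tested were called (26.4% higher, 32.1% lower). In *Ypel4*−/− mice, whose libraries are separate from those of the wild type, the same 8 genes were called in the same directions and *Vim* was called higher, so that 3 were higher and 6 lower against 61% of 11973 genes (29.5% higher, 31.5% lower). With calls this common, the number of genes called says little, and the sizes below carry the description.

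**Figure D1:**
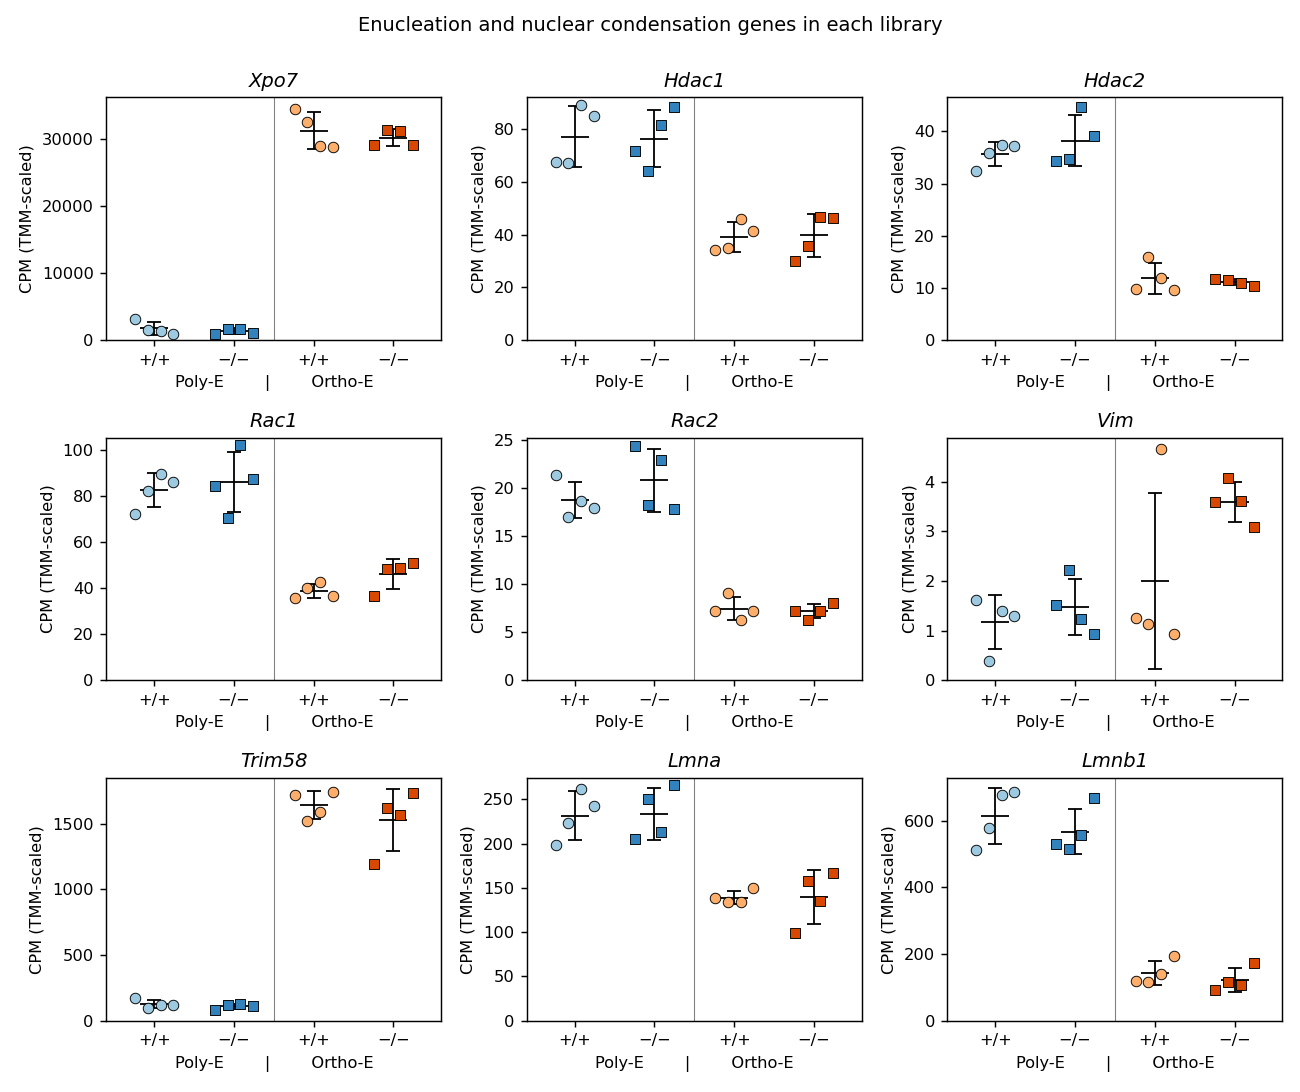
Each panel shows 1 gene, with its level in CPM (linear axis from 0) in every library. Circles are *Ypel4*+/+ and squares *Ypel4*−/− libraries, blue for Poly-E and orange for Ortho-E, with replicates 1 to 4 from left to right and bars for mean ± SD (n = 4). *Xpo7* and *Trim58* are far higher in Ortho-E, the other genes but *Vim* are lower there with no overlap, and the 2 genotypes overlap in every panel.

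*Xpo7* (ENSMUSG00000022100; chromosome 14, 70654246 to 70766628, − strand), the export receptor, had the largest change of the 9. Its 4 *Ypel4*+/+ Poly-E libraries held 3124, 1551, 1317 and 971 CPM, and those of *Ypel4*−/− Poly-E held 972, 1719, 1701 and 987 CPM. In Ortho-E it stood at 34486, 32434, 28988 and 28842 CPM in *Ypel4*+/+ and at 29007, 31351, 31155 and 29102 CPM in *Ypel4*−/− mice. Every Ortho-E library was thus more than 9 times above the highest Poly-E library. The log2 fold change was 4.20 (SE 0.41, adjusted p = 9.08e-05) in *Ypel4*+/+ and 4.67 (SE 0.19, adjusted p = 2.44e-12) in *Ypel4*−/− mice, 18.3-fold and 25.5-fold. By counts it rose from rank 40 to rank 4 among all genes in *Ypel4*+/+ mice and took 1.98% ± 0.16 (SD, n = 4) of all counts in Ortho-E against 0.26% ± 0.13 in Poly-E. The highest Poly-E value, replicate 1 of *Ypel4*+/+, came from the library that was also highest among the 4 for *Trim58* and for *Ypel4* (716 CPM). Without it the log2 fold change in *Ypel4*+/+ mice was 4.76.

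*Trim58* (ENSMUSG00000037124; chromosome 11, 58640465 to 58652404, + strand), the ubiquitin ligase, followed the same course at a lower level. Its Poly-E libraries held 173, 99.1, 122 and 117 CPM in *Ypel4*+/+ and 81.3, 120, 126 and 114 CPM in *Ypel4*−/− mice. Its Ortho-E libraries held 1719, 1522, 1586 and 1740 CPM in *Ypel4*+/+ and 1192, 1622, 1566 and 1734 CPM in *Ypel4*−/− mice, all of them above every Poly-E library. The log2 fold change was 3.72 (SE 0.16, adjusted p = 6.2e-16) and 3.96 (SE 0.15, adjusted p = 9.26e-21), and for each of the 8 genotype and replicate numbers the Ortho-E library was higher than the Poly-E library of that number, by 3.31 to 3.93 on the log2 scale.

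The 2 lamins, structural proteins of the nuclear envelope, both fell, and by different amounts. *Lmnb1* (ENSMUSG00000024590), which encodes lamin B1, stood at 511, 578, 677 and 688 CPM in *Ypel4*+/+ Poly-E, against 118, 117, 141 and 193 CPM in *Ypel4*+/+ Ortho-E. It ran from 516 to 667 CPM in *Ypel4*−/− Poly-E and from 92.7 to 175 CPM in *Ypel4*−/− Ortho-E, again with no overlap. It fell by 2.06 on the log2 scale in *Ypel4*+/+ (SE 0.15, adjusted p = 1.75e-11) and by 2.05 in *Ypel4*−/− mice (SE 0.15, adjusted p = 6.83e-13), the largest decrease among the 9 genes. *Lmna* (ENSMUSG00000028063; chromosome 3, 88480147 to 88509956, − strand), whose transcripts for lamin A and lamin C are counted together, stood at 198, 223, 262 and 243 CPM in *Ypel4*+/+ Poly-E, against 138, 134, 134 and 150 CPM in *Ypel4*+/+ Ortho-E. It ran from 205 to 266 CPM and from 99.0 to 167 CPM in *Ypel4*−/− mice, and fell by 0.70 (SE 0.12, adjusted p = 1.37e-05) and by 0.57 (SE 0.14, adjusted p = 0.000545).

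Since both lamins were read from the same libraries, their ratio does not depend on the scaling. Per exon length, the *Lmna* level was 0.192 ± 0.00854 of the *Lmnb1* level in *Ypel4*+/+ Poly-E and 0.513 ± 0.0946 in *Ypel4*+/+ Ortho-E, and 0.209 ± 0.0246 and 0.590 ± 0.0948 in *Ypel4*−/− mice (mean ± SD, n = 4). The ratio was higher in each Ortho-E library (lowest 0.392) than in any Poly-E library (highest 0.246), by 1.4 and 1.49 on the log2 scale. Each difference had an exact two-sided permutation p of 0.029, the smallest that 4 libraries against 4 allow, and an adjusted p of 0.0857 over the 12 ratio comparisons made, which were chosen after the values had been seen. The permutation test thus did not pass the threshold after adjustment and cannot do so at this number of libraries unless more ratios differ.

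**Figure D2:**
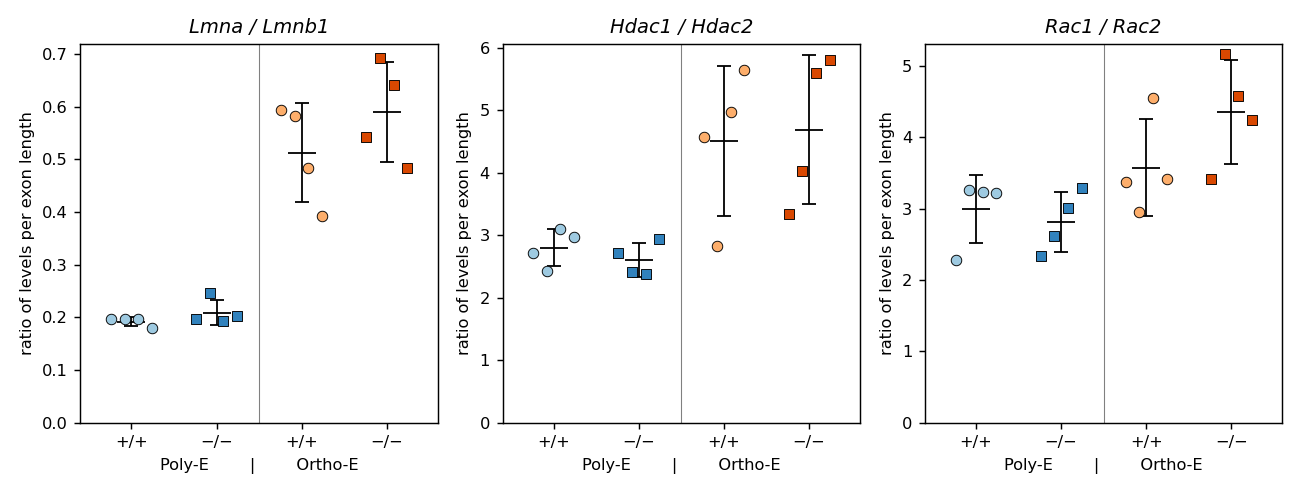
The ratio of 2 family members within each library, each divided by its exon length, on linear axes from 0. Circles are *Ypel4*+/+ and squares *Ypel4*−/− libraries, and bars give mean ± SD (n = 4). *Lmna* over *Lmnb1* moves from 0.179 to 0.246 in Poly-E up to 0.392 to 0.693 in Ortho-E, while the other ratios overlap between stages in *Ypel4*+/+ mice.

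The class I deacetylases *Hdac1* and *Hdac2*, catalytic subunits of the same repressor complexes, both fell. *Hdac1* (ENSMUSG00000028800; chromosome 4, 129516104 to 129542713, − strand) stood at 67.5, 67.2, 89.2 and 85.0 CPM in *Ypel4*+/+ Poly-E, against 34.2, 34.8, 46 and 41.5 CPM in *Ypel4*+/+ Ortho-E. In each of the 4 groups replicates 3 and 4 held more *Hdac1* than replicates 1 and 2, and in *Ypel4*+/+ mice the decrease was called within each set. It fell by 0.94 (SE 0.14, adjusted p = 3.03e-06) and, in *Ypel4*−/− mice, by 0.78 on the log2 scale (SE 0.15, adjusted p = 2.78e-05). *Hdac2* (ENSMUSG00000019777; chromosome 10, 36974544 to 37001889, + strand) had 32.3 to 37.5 CPM in *Ypel4*+/+ Poly-E and 9.56 to 16 CPM in *Ypel4*+/+ Ortho-E. It fell by 1.6 (SE 0.18, adjusted p = 1.09e-08) and by 1.64 (SE 0.17, adjusted p = 4.10e-10). Per exon length *Hdac1* was at 2.80 ± 0.292 times *Hdac2* in *Ypel4*+/+ Poly-E and at 4.50 ± 1.2 times in *Ypel4*+/+ Ortho-E, with overlap between the libraries (exact permutation p = 0.0857, adjusted p = 0.206). In *Ypel4*−/− mice the ratios were 2.61 ± 0.271 and 4.69 ± 1.19, without overlap (exact permutation p = 0.029, adjusted p = 0.0857). Of the 75-base stretches of *Hdac1* transcripts, 29.3% also occur in another gene, nearly all in the pseudogene *Gm10093*. Reads lying wholly in such stretches could be left out as having several positions, but how many were lost was not measured. That pseudogene held 18 to 93 counts in Poly-E and 1 to 17 in Ortho-E libraries.

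*Rac1*, found in most tissues, and *Rac2*, restricted to blood cells, are small GTPases that organize actin. *Rac1* (ENSMUSG00000001847; chromosome 5, 143503634 to 143528036, − strand) had 72.4 to 89.7 CPM in *Ypel4*+/+ Poly-E and 35.9 to 42.7 CPM in *Ypel4*+/+ Ortho-E. In *Ypel4*−/− mice it had 70.5 to 102 CPM and 36.4 to 50.9 CPM, so that the stages did not overlap in either genotype. It fell by 1.06 (SE 0.13, adjusted p = 1.10e-07) and by 0.73 on the log2 scale (SE 0.14, adjusted p = 3.65e-05). *Rac2* (ENSMUSG00000033220; chromosome 15, 78559169 to 78572783, − strand) had 17.0 to 21.4 CPM in *Ypel4*+/+ Poly-E and 6.33 to 9.14 CPM in *Ypel4*+/+ Ortho-E, there from 16 to 31 counts per library. It fell by 1.32 (SE 0.20, adjusted p = 1.78e-06) and by 1.35 (SE 0.19, adjusted p = 2.40e-07). The *Rac1* to *Rac2* ratio per exon length went from 3.00 ± 0.477 in Poly-E to 3.57 ± 0.683 in Ortho-E of *Ypel4*+/+ mice (exact permutation p = 0.286, adjusted p = 0.343), and 2.81 ± 0.423 and 4.35 ± 0.728 in *Ypel4*−/− mice (p = 0.029 by the same exact test, adjusted p = 0.0857). *Rac1* shares 2309 of its 4496 exon bases (51.4%) with *Daglb* on the opposite strand, and reads there were not counted for either gene, so its level is understated. Over the remaining length the ratio would be 6.17 and 7.35 in *Ypel4*+/+ Poly-E and Ortho-E.

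*Vim* (ENSMUSG00000026728; chromosome 2, 13573927 to 13582826, + strand), which encodes vimentin, was close to the limit of these libraries, with 2 to 21 counts in each. In *Ypel4*+/+ mice it stood at 1.62, 0.387, 1.39 and 1.30 CPM in Poly-E and at 1.27, 1.14, 4.67 and 0.933 CPM in Ortho-E, where only replicate 3 lay above the Poly-E range. In *Ypel4*−/− mice it stood at 1.52, 2.23, 1.24 and 0.926 CPM in Poly-E and at 3.6, 4.08, 3.62 and 3.09 CPM in Ortho-E, with no overlap. The log2 fold change was 0.76 (SE 0.52, adjusted p = 0.222) in *Ypel4*+/+ and 1.53 (SE 0.37, adjusted p = 0.000638) in *Ypel4*−/− mice. Without replicate 3 of *Ypel4*+/+ Ortho-E the first value was −0.14, and with scaling to library totals alone it was −0.51, while the call in *Ypel4*−/− mice was lost with that scaling (adjusted p = 0.765) and with replicates 1 and 2 alone (adjusted p = 0.0621).

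Some transcripts of other blood cells were also called higher in Ortho-E after TMM scaling, and none of those tested was called lower. In *Ypel4*+/+ mice these were 2 of 5 granulocyte and monocyte markers tested, 1 of 8 macrophage, 3 of 6 lymphoid and 1 of 2 megakaryocyte markers. Of all genes tested there, 26.4% were called higher. In *Ypel4*−/− mice these were 6 of 7, 4 of 9, 5 of 5 and 1 of 3, where 29.5% of all genes were called higher. Of the stromal and endothelial markers tested, 2 of 3 were called higher in *Ypel4*+/+ and 0 of 2 in *Ypel4*−/− mice. The 10 granulocyte and monocyte markers summed to 2.61 to 3.77 CPM in *Ypel4*+/+ Poly-E, 2.11 to 5.47 in *Ypel4*−/− Poly-E, 5.92 to 21 in *Ypel4*+/+ Ortho-E and 5.19 to 17.1 CPM in *Ypel4*−/− Ortho-E, with *Elane* at 0 in 3 of these groups. These sums overlapped between the stages in *Ypel4*−/− mice. The 9 lymphoid markers summed to 20.3 to 25.7 CPM in *Ypel4*+/+ Poly-E, 21.7 to 43.3 in *Ypel4*−/− Poly-E, 37.1 to 52.0 in *Ypel4*+/+ Ortho-E and 53.1 to 72.4 CPM in *Ypel4*−/− Ortho-E, with *Cd3e* at 0 in every group. In Ortho-E the lymphoid sum, like the mean of *Vim*, was thus higher in *Ypel4*−/− than in *Ypel4*+/+ mice, although no single lymphoid marker was called between genotypes there. The stromal and endothelial sum went the other way in Ortho-E, with medians of 2.42 CPM in *Ypel4*−/− and 5.54 CPM in *Ypel4*+/+ mice and overlapping libraries. The 9 macrophage markers summed to 2.52 to 5.67 CPM in Poly-E and 7.0 to 13.1 CPM in Ortho-E. The *Ypel4*+/+ Ortho-E library highest for *Vim* held 9.33 CPM of the granulocyte and monocyte markers, less than the 21 CPM of replicate 4, and with 52.0 CPM the most of the lymphoid markers among the 4. Replicate 1 of that group was close to it with 48.6 CPM of the lymphoid markers, while its *Vim* was at 1.27 CPM. The 5 megakaryocyte and platelet markers summed to 26.7 to 35.6 CPM in Poly-E and 90.0 to 113 CPM in Ortho-E, with *Pf4* at 0 in both Ortho-E groups, and the 9 stromal and endothelial markers stayed at or under 6.00 CPM. The part of these cells in the *Vim* values was not tested. All calls and sums of these markers are TMM-scaled, with factors of 1.45 to 1.64 in Poly-E and 0.606 to 0.726 in Ortho-E. They were not read with library totals, so a rise in their share of the counts is not shown.

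All values above depend on TMM scaling, which sets the bulk of genes near 0: all genes tested had a median log2 fold change of −0.19 in *Ypel4*+/+ and −0.09 in *Ypel4*−/− mice. With library totals alone that median was −1.45 and −1.47, and the calls were 1217 higher and 7087 lower in *Ypel4*+/+ and 1337 higher and 7289 lower in *Ypel4*−/− mice, in place of 3101 and 3773, and of 3538 and 3767. The same 8 genes were still called in their directions. Relative to the median of all genes, *Xpo7* was higher by 4.38 to 4.40 and *Lmna* lower, at −0.54 to −0.50, under each of the 4 scalings in *Ypel4*+/+ mice.

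**Figure D3:**
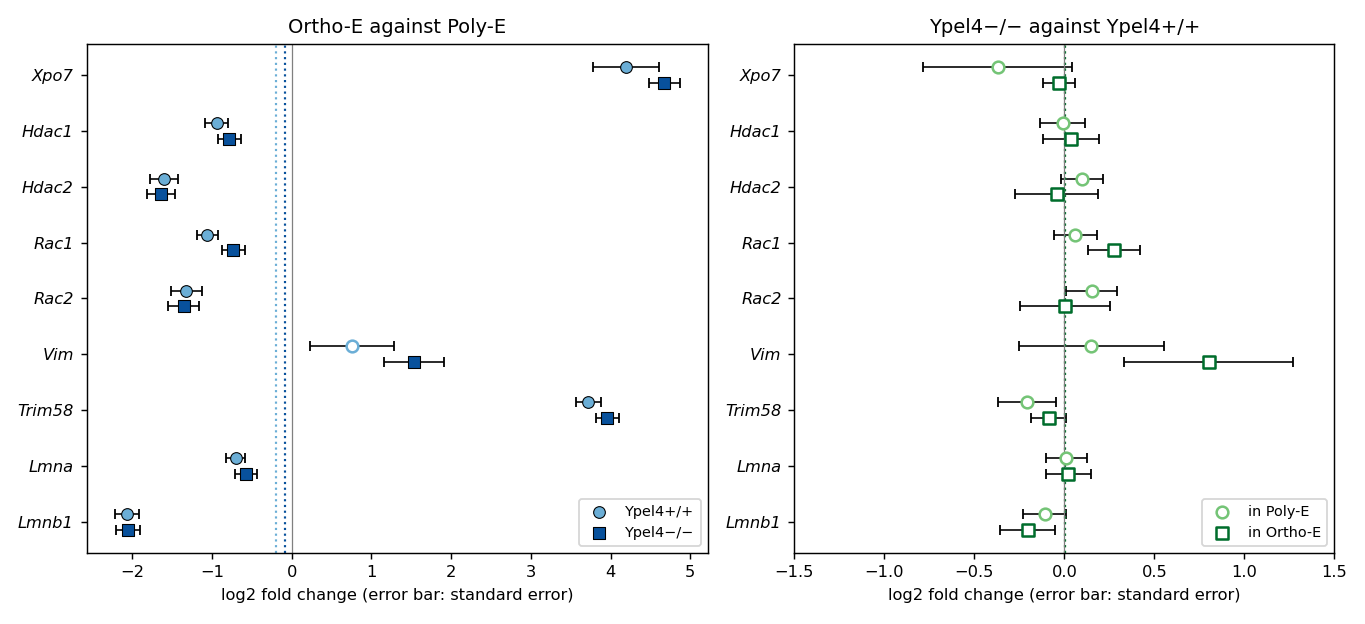
Log2 fold changes with standard errors, on the left for Ortho-E against Poly-E and on the right for *Ypel4*−/− against *Ypel4*+/+, on different horizontal scales. Filled symbols passed an adjusted p of 0.05 and open ones did not, and dotted lines give the median of all genes tested. The stages differ by −2.06 to 4.67, and every genotype difference is open, from −0.37 to 0.80.

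Per kilobase of exon, which allows levels of different genes to be compared, *Lmnb1* was highest in *Ypel4*+/+ Poly-E at 207 ± 28.3 CPM per kilobase, followed by *Xpo7* (115 ± 63.0), *Trim58* (58.3 ± 14.5), *Lmna* (39.7 ± 4.67), *Hdac1* (22.4 ± 3.35), *Rac1* (18.4 ± 1.66), *Hdac2* (7.98 ± 0.524), *Rac2* (6.19 ± 0.613) and *Vim* (0.248 ± 0.114; mean ± SD, n = 4). The libraries of neighbours overlapped for *Lmnb1* and *Xpo7*, *Xpo7* and *Trim58*, and *Hdac1* and *Rac1*. In *Ypel4*+/+ Ortho-E the order began with *Xpo7* (2063 ± 182) and *Trim58* (749 ± 48), while *Lmnb1* was next at 48 ± 12.1, and the 6 others kept their order on this length. There only *Hdac2* and *Rac2* overlapped among neighbours. The order was the same in *Ypel4*−/− mice in both stages. The place of *Rac1* depends on the length used: over the exon bases where its reads could be counted it stood at 37.8 ± 3.40 CPM per kilobase in *Ypel4*+/+ Poly-E and 17.7 ± 1.43 in *Ypel4*+/+ Ortho-E, above *Hdac1* in both stages. The *Hdac1* level was not corrected for its shared stretches.

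**Figure D4:**
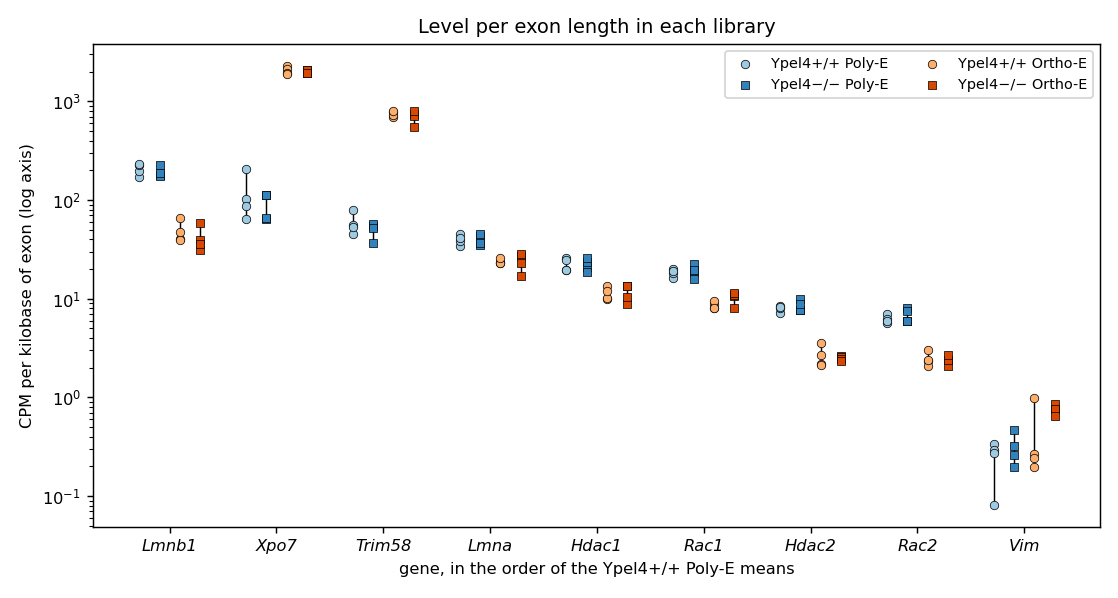
Level in CPM per kilobase of exon on a log axis, for each library, with genes in the order of the *Ypel4*+/+ Poly-E means and vertical lines from the lowest to the highest library. *Rac1* is divided by all of its exon bases, including those where reads were not counted. *Xpo7* and *Trim58* stand above the other 7 genes in Ortho-E, and *Vim* stays below 1 CPM per kilobase in every library.

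Of the 4835 genes that averaged 10 CPM or more, those whose log2 CPM followed each gene most closely over the 16 libraries were found by Pearson's r, which here mostly reflects the step between the 2 stages that all libraries share. *Xpo7* ran most closely with *Bpgm*, the enzyme that makes 2,3-bisphosphoglycerate, *Cat*, catalase, and *D930015E06Rik* (r = 0.999, 0.999 and 0.998). *Trim58* ran with *Itsn1*, *Dennd2c* and *Specc1* (each r = 0.999), and *Lmnb1* with the mitotic kinesin *Kifc1*, the lamina-associated *Tmpo* and the Ran regulator *Rangap1* (r = 0.997, 0.996 and 0.996). *Hdac1* ran with *Atp2a2*, *Piezo1* and *Chd4*, an ATPase of the NuRD complex that holds Hdac1 (r = 0.990, 0.988 and 0.987), and *Lmna* with *Strap*, *Rcor1* and *Ppp2r5d* (r = 0.972 to 0.976). *Hdac2* ran with *Dtnb*, *Pask* and *Tubgcp2* (r = 0.984), *Rac1* with *Aes*, *Chaf1a* and *Eif3b* (r = 0.975 to 0.982), and *Rac2* with *Phf10*, *Mcm10* and *Mdc1* (r = 0.984 to 0.986). *Vim* had no close partner: its highest r was 0.810, with the B cell gene *Ighm*.

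The other genes of these pathways, 114 in 10 classes, were read in the same tests. In *Ypel4*+/+ mice 106 were tested, of which 28 were called higher and 64 lower in Ortho-E, and in *Ypel4*−/− mice 27 higher and 63 lower. The share called higher, 26.4% and 25.5%, was near that of all genes (26.4% and 29.5%), while the share called lower was 60.4% and 59.4%, against 32.1% and 31.5% of all genes. Their median log2 fold change was −1.02 and −0.92, below that of all genes. With library totals the calls were 7 higher and 82 lower in *Ypel4*+/+ mice. The lists were chosen with earlier results of these data known, and their genes were not matched in level to all genes. These shares, and those by class below, thus describe the listed genes and are not independent support for a pathway change.

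Around the deacetylases, 12 of the 16 subunits of their complexes were called lower (75%, against 32.1% of all genes) and 4 higher (25%, against 26.4%) in *Ypel4*+/+ mice, with a median of −1.19. The NuRD subunit *Mta1* fell by 2.60 (SE 0.29, adjusted p = 2.12e-07) and the histone-binding *Rbbp7* by 2.23 (SE 0.13, adjusted p = 7.63e-14). *Mta3*, another NuRD subunit, was higher by 1.56 (SE 0.13, adjusted p = 8.74e-11), from 53.9 ± 8.95 to 155 ± 12.8 CPM, and the corepressor *Sin3b* by 0.84 (SE 0.17, adjusted p = 0.000117). With library totals none of the 4 was called higher in *Ypel4*+/+ mice. Of 9 other deacetylases, 4 were called lower (44.4%) and 2 higher (22.2%), with *Hdac3* down by 1.99 (SE 0.22, adjusted p = 1.10e-08) and *Hdac5* up by 1.16 (SE 0.16, adjusted p = 6.32e-07). With library totals none of these 9 was called higher in either genotype, so the rise of *Hdac5* depends on the scaling.

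Genes that compact chromosomes or clear the nucleus divided. All 8 condensin subunits were called lower in both genotypes and under each scaling (median −2.08 and −1.97), among them *Ncaph*, down by 2.46 (SE 0.14, adjusted p = 4.03e-14), and *Ncapg2*, down by 2.21 (SE 0.13, adjusted p = 7.62e-14). Of 12 other regulators, 5 were called higher (41.7%, against 26.4% of all genes) and 6 lower (50%, against 32.1%) in *Ypel4*+/+ mice, and 4 and 7 in *Ypel4*−/− mice. With library totals these calls were 2 higher and 7 lower in *Ypel4*+/+ mice, and 3 and 8 in *Ypel4*−/− mice. The kinase gene *Riok3* rose from 252 ± 45.9 to 1972 ± 90.1 CPM, by 3.00 (SE 0.14, adjusted p = 1.13e-15), and *Wdr26*, of a ubiquitin ligase complex, from 927 ± 178 to 6104 ± 206 CPM, by 2.75 (SE 0.14, adjusted p = 3.39e-15). *Hmgb1*, a chromatin protein, fell by 2.05 (SE 0.12, adjusted p = 8.34e-14).

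Of the 10 other exportins and Ran cycle genes, 8 were called lower (80%, against 32.1% of all genes) and none higher in *Ypel4*+/+ mice (median −1.66), opposite in direction to *Xpo7*. *Xpo5*, which exports microRNA precursors, fell by 2.44 (SE 0.18, adjusted p = 5.15e-12) and *Ranbp1*, a Ran regulator, by 2.20 (SE 0.17, adjusted p = 9.29e-12). In *Ypel4*−/− mice 8 were lower and 1 higher. Of 10 other TRIM ligases 6 were called higher (60%, against 26.4% of all genes) and 3 lower (30%, against 32.1%) in *Ypel4*+/+ mice, and 5 and 2 in *Ypel4*−/− mice, and *Trim10*, another erythroid member, rose from 970 ± 138 to 6742 ± 1030 CPM, by 2.83 (SE 0.14, adjusted p = 4.23e-15). *Trim26* was higher by 2.96 (SE 0.16, adjusted p = 3.14e-14), while *Trim27* fell by 2.16 (SE 0.19, adjusted p = 1.02e-10) and *Trim39* by 1.45 (SE 0.15, adjusted p = 2.75e-09). With library totals 3 TRIM genes were called higher and 5 lower.

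Around the lamins, 14 of 17 genes of the lamina and envelope were called lower (82.4%, against 32.1% and 31.5% of all genes) and 1 higher in each genotype (median −1.38 and −1.30). Emerin (*Emd*) fell by 2.36 (SE 0.20, adjusted p = 9.34e-11) and *Lemd2* by 2.22 (SE 0.31, adjusted p = 2.92e-06). The exception was *Tor1aip1*, which encodes the lamin-binding LAP1, at 38.4 ± 6.51 CPM in Poly-E and 100 ± 17.3 CPM in Ortho-E, a rise of 1.43 (SE 0.15, adjusted p = 3.28e-09) that was not called with library totals in *Ypel4*+/+ mice. Beside *Vim*, 2 of 8 other filament genes had enough counts to be tested, *Gfap* and the linker *Plec*, and both were called higher in *Ypel4*+/+ mice, by 0.96 (SE 0.12, adjusted p = 5.27e-08) and 2.05 (SE 0.33, adjusted p = 5.70e-06). With library totals 1 of the 2 was called higher and 1 lower. *Plec* is named although its level is under the minimum set for named genes.

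The cytoskeletal genes were mixed. Of 8 actomyosin genes, 2 were called higher (25%) and 4 lower (50%) in both genotypes, where 26.4% and 32.1% of all genes were in *Ypel4*+/+ mice. The heavy chain *Myh9* fell by 2.05 (SE 0.16, adjusted p = 1.62e-11) and cofilin (*Cfl1*) by 1.76 (SE 0.15, adjusted p = 1.59e-10), while the heavy chain *Myh10* rose by 0.67 (SE 0.12, adjusted p = 1.57e-05) and the light chain *Myl6* by 1.42 (SE 0.30, adjusted p = 0.00376). With library totals no actomyosin gene was called higher in either genotype.

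Of 14 dynein and dynactin genes, the motor that Trim58 targets, 6 were called higher (42.9%) and 5 lower (35.7%) in both genotypes, where 26.4% and 32.1% of all genes were in *Ypel4*+/+ mice and 29.5% and 31.5% in *Ypel4*−/− mice. *Pafah1b1*, which encodes the dynein regulator LIS1, rose from 249 ± 22.7 to 749 ± 61.4 CPM, by 1.63 (SE 0.12, adjusted p = 5.68e-12), and the light intermediate chain *Dync1li2* by 1.54 (SE 0.13, adjusted p = 9.47e-11). The light chain *Dynll2* fell by 1.59 (SE 0.17, adjusted p = 8.66e-09) and *Nde1*, a partner of LIS1, by 1.34 (SE 0.12, adjusted p = 2.38e-10). With library totals 1 was called higher and 10 lower in *Ypel4*+/+ mice.

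**Figure D5:**
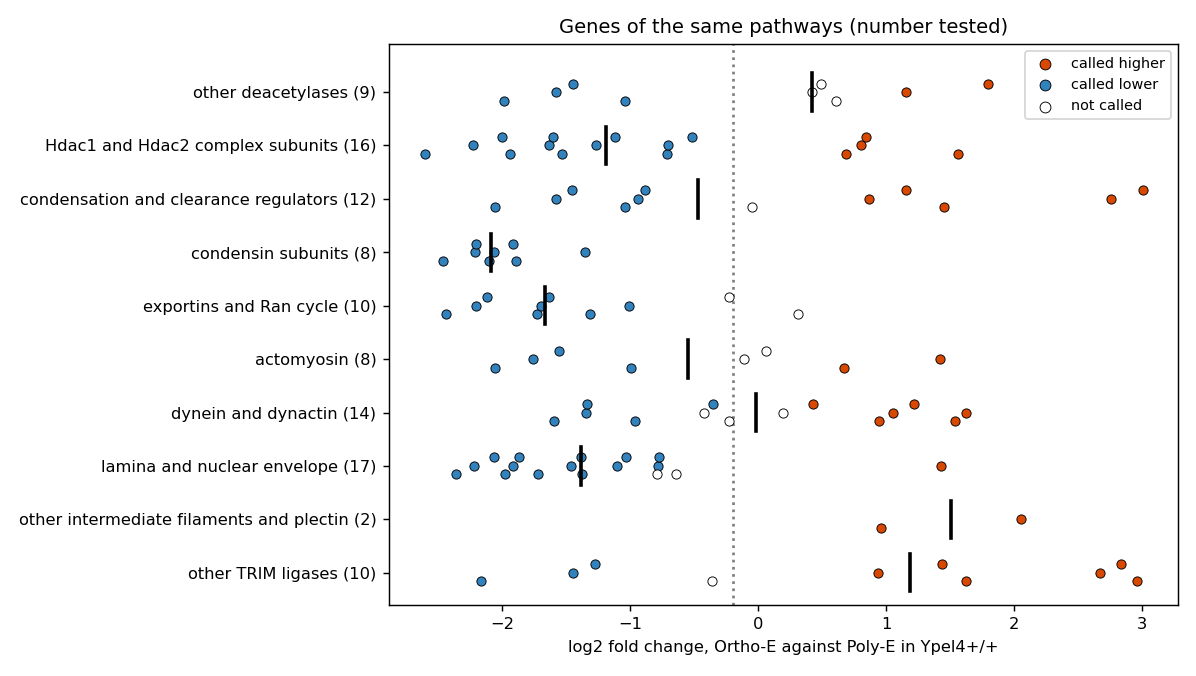
Each point is 1 gene by class, at its log2 fold change from Poly-E to Ortho-E in wild-type mice, red where called higher, blue where called lower and white where not called, with black bars for class medians and a dotted line for the median of all genes (−0.19). All 8 condensin subunits lie at the left, while the TRIM ligases and the regulators of condensation spread to both sides.

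Loss of *Ypel4* was tested within each stage. None of the 9 genes was called in Poly-E, where 0.00807% of 12395 genes were called (*Ypel4* itself), and none in Ortho-E, where 0.0285% of 10521 were (0.0095% higher, 0.019% lower). With the replicate number as a block, pairing same-numbered libraries, the calls in Poly-E were 1 higher and 3 lower over all genes, and still none of the 9. None reached an unadjusted p below 0.05 in edgeR, and DESeq2 called none. In Poly-E the log2 fold changes of *Ypel4*−/− against *Ypel4*+/+ ran from −0.37 (*Xpo7*, SE 0.41) to 0.15 (*Rac2*, SE 0.14). The *Xpo7* value was 0.07 without replicate 1 of *Ypel4*+/+ Poly-E, the library named above. In Ortho-E they ran from −0.20 (*Lmnb1*, SE 0.15) to 0.80 (*Vim*, SE 0.47), and *Rac1* was at 0.27 (SE 0.15, adjusted p = 0.995), higher in the mutant on average with overlapping libraries. The genotypes overlapped for every gene in both stages, and exact two-sided permutation tests gave p from 0.114 to 0.971, where 0.029 is the smallest possible.

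The standard errors give only a rough guide to what could have been seen. In Ortho-E they were 0.09 for *Xpo7* and 0.10 for *Trim58*, the genes with most counts there, 0.12 for *Lmna*, and 0.47 for *Vim*. For *Vim* in Ortho-E the mutant libraries held 3.6 ± 0.406 CPM and the wild-type libraries 2.00 ± 1.78 CPM (mean ± SD, n = 4), and the lymphoid markers were also higher in each of these mutant libraries (53.1 to 72.4 against 37.1 to 52.0 CPM). The granulocyte and monocyte markers overlapped between the genotypes there (5.19 to 17.1 against 5.92 to 21 CPM). The part of other blood cells in the *Vim* difference was not tested. Without the wild-type replicate 3 the log2 difference was 1.73.

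Whether the change between stages differed between genotypes was tested as an interaction. It was not called for any of the 9 genes by edgeR or by DESeq2, nor by edgeR for any of 13318 genes (0%), with 363 at an unadjusted edgeR p below 0.05, of which none was among the 9; with genotype and replicate number as a block 1 gene was called. The largest interaction was that of *Vim*, 0.66 (SE 0.63, adjusted p = 1.00), so the call of *Vim* in *Ypel4*−/− and not in *Ypel4*+/+ mice is not shown to be a difference between them. Of the pathway genes none was called between genotypes in either stage by edgeR or DESeq2, although 2 of the 106 tested in Poly-E and 2 of the 105 tested in Ortho-E had an unadjusted p below 0.05 (1.89% and 1.90%, against 2.19% and 3.68% of all genes).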

How the data were processed

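Poly-E and Ortho-E from both genotypes gave 16 RNA libraries, grouped by the sample titles. The authors aligned the reads to GRCm38 with nf-core/rnaseq and deposited whole-number counts per gene from featureCounts 1.6.4, not normalized. Per the file headers, read pairs on exons were counted without strand, and reads with several positions or overlapping several genes were left out. No 2 replicates of a group agreed within sampling noise (24 pairs).

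Genes reaching 10 counts in total within a fit were tested with edgeR 4.0.16 (TMM, robust quasi-likelihood test, Benjamini-Hochberg adjustment over all genes tested) in R 4.3.3, on the 8 libraries compared or, for the interaction, on 16. Each standard error (SE) is the size of the log2 fold change over the square root of the F value of that test. The fits were tested on simulated data. Ratios and genotypes were also compared by exact permutation (scipy 1.17.1), the latter on log2 of CPM plus 0.5. The genes, pathway lists and markers were chosen with earlier results of these data known. Named from each class were the 2 called highest and 2 called lowest in *Ypel4*+/+ mice with a mean of at least 10 CPM, and for each of the 9 genes the 3 most alike. Some genes of the pathway lists are not reported here.

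Both stages of a replicate carry the same number in the deposited names. Deviations from group means correlated at 0.477 to 0.647 between same-numbered stages in *Ypel4*+/+ mice, where differently numbered ones reached 0.432. In *Ypel4*−/− mice same-numbered stages correlated at 0.0838 to 0.566, with 3 of 4 pairs over 0.1. Between genotypes same-numbered Poly-E libraries correlated at 0.229 to 0.647. Differently numbered ones reached 0.603, and only 3 of 8 libraries correlated best with their own number. Poly-E libraries numbered 1 or 2 and those numbered 3 or 4 formed 2 sets between genotypes. Correlations were 0.224 to 0.647 within a set and −0.581 to −0.123 across sets, a split whose cause was not tested. Same-numbered Ortho-E libraries correlated at −0.134 to 0.340, with 3 of 4 pairs over 0.1. The main tests did not pair libraries, so their standard errors and p-values ignore these correlations. With the replicate block the adjusted p of *Xpo7* between stages in *Ypel4*+/+ mice was 7.24e-20 in edgeR's test, in place of 9.08e-05. With 8 libraries and a term for each replicate number, a p this small cannot come from the spread between libraries alone. It is not read as stronger evidence. Alternatives were DESeq2 1.42.0, its size factors, library totals, 13 globin genes left out, other filters, all 16 libraries, the replicate block, replicates 1 and 2 or 3 and 4 alone, and each library left out. Family ratios, the countable length of *Rac1* and pathway counts under other scalings were added after seeing the data.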

Additional observations from a re-analysis of the deposited data

Results flagged for a closer look

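Of 40 groups of 4 libraries tested for a library far from the others, 1 was flagged, and chance flags about 1 in 20 such groups. It was *Vim* in *Ypel4*+/+ Ortho-E, where replicate 3 stood at 4.67 CPM (14 counts) against 1.27 CPM in the nearest and 0.933 CPM in the lowest library, so that the gap took 0.910 of the range. The other 3 libraries held 2 to 4 counts of *Vim* each.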

How the results depend on the processing

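The counts of the 9 genes called were the same under every alternative, with the exception of those called higher between stages in *Ypel4*−/− mice, 2 in place of 3 with library totals and with replicates 1 and 2 only, where *Vim* was at 0.13 and 1.27. Apart from the fits that left out a library, *Vim* was tested under 9 alternatives and each other gene under 10. This held between stages in *Ypel4*+/+ mice and between genotypes in both stages. The replicate block changed no call of the 9 genes and gave *Xpo7* 4.34 and *Vim* 0.73 in *Ypel4*+/+ mice. It moved the genes called between genotypes from 0 higher and 1 lower to 1 and 3 in Poly-E, and from 1 and 2 to 7 and 6 in Ortho-E. Leaving out 1 library at a time, the stage difference in *Ypel4*+/+ mice ranged from −0.14 to 1.12 for *Vim*. The genotype difference in Poly-E ranged from −0.57 to 0.072 for *Xpo7*, from −0.088 to 0.068 for *Hdac1*, from −0.026 to 0.15 for *Rac1*, from −0.063 to 0.41 for *Vim* and from −0.055 to 0.069 for *Lmna*. In Ortho-E it ranged from −0.099 to 0.037 for *Xpo7*, from −0.045 to 0.15 for *Hdac1*, from −0.19 to 0.11 for *Hdac2*, from −0.058 to 0.094 for *Rac2* and from −0.068 to 0.13 for *Lmna*. The interaction ranged from −0.034 to 0.58 for *Xpo7*, from −0.050 to 0.22 for *Hdac1*, from −0.099 to 0.18 for *Lmna* and from −0.34 to 0.089 for *Lmnb1*. None of these was called in these fits.

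Other values that changed sign, the cause of which was not tested, were these. Between stages in *Ypel4*+/+ mice *Vim* was at −0.51 with library totals. Between genotypes in Poly-E *Hdac1* was at 0.040 with library totals and 0.013 with replicates 1 and 2, and with replicates 3 and 4 *Xpo7* was at 0.23, *Vim* at −0.39, *Trim58* at 0.0071 and *Lmna* at −0.070. In Ortho-E *Rac2* was at −0.0088 with DESeq2, −0.0033 with its size factors, −0.0043 with all 16 libraries and −0.20 with replicates 1 and 2, where *Hdac1* was at −0.0024 and *Lmna* at −0.021. *Xpo7* was there at 0.0095 with library totals and 0.038 with replicates 3 and 4. The interaction of *Lmna* was 0.018 with DESeq2 and 0.016 with its size factors. *Vim*, with 2 to 21 counts a library, is the gene that depth limits most, with standard errors of 0.37 to 0.63.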
